A study of Mus musculus with 2 samples.

Results

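The genes described here are 10 that are commonly read together in lipid-associated macrophages: Spp1, Trem2, Apoe, Gpnmb, Fabp5, Lpl, Lgals3, Cd9, Cd63 and Cd36. They were taken by symbol from a count table of 31253 genes, and each symbol was found once. The samples were CD45+ cells sorted from mouse livers bearing intrahepatic cholangiocarcinoma, a tumour of the bile duct lining. C57BL/6 mice received hydrodynamic injections of 2 transposon vectors, one for Myr-AKT (membrane-targeted AKT kinase) and one for YAPS127A (the transcriptional co-activator YAP with a point change), so both groups carried the same tumour drivers. Treatment began 7 days later and lasted a further 7 days. One group received NAV2729, a small molecule known as an inhibitor of ARF6 activation, at 30 mg/kg every other day, and the other was mock-treated. They are called NAV and MOCK below. Each group was 1 library on BD Rhapsody, a microwell platform that tags each molecule with a unique molecular identifier (UMI). The cells of each library were pooled from several tumours, given as 6 per group in the design text and as 3 pairs in the protocol. Since a group was 1 library, its differences have no replicate check, no test was run, and the 95% intervals cover counting error only.

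Lipid-associated macrophages are macrophages that take up lipid from dying cells and tissue and are found in fatty livers, atherosclerotic plaques and tumours. TREM2 is a surface receptor that binds lipids, lipoproteins and apolipoprotein E and signals through an adaptor. Engaged macrophages are known to raise genes of lipid uptake, lipid transport and the lysosome. Spp1 encodes osteopontin, a secreted phosphoprotein that binds integrins and CD44 and marks a state of tumour macrophages that overlaps with this programme only in part.

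All 10 genes are protein-coding in GENCODE vM21 on GRCm38. Spp1 lies at chr5:104435118-104441050 on the plus strand, Trem2 at chr17:48346401-48354147 (plus), Gpnmb at chr6:49036546-49070929 (plus) and Apoe at chr7:19696109-19699188 (minus). The promoters of 3 of the genes are shown because their levels went separate ways below: Spp1 and Gpnmb were higher in NAV macrophage-like cells and Trem2 was lower. Each runs 5′ to 3′ from 250 bases before to 50 bases after a RefSeq start on GRCm38.p6, and the letters of a searched motif are in capitals.
Spp1, chr5:104434861-104435160, plus strand: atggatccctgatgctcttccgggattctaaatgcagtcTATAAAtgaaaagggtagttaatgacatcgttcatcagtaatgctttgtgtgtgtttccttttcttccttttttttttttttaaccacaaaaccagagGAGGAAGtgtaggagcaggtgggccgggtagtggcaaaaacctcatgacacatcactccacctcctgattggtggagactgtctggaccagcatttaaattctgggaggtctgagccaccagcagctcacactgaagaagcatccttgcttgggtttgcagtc
Trem2, chr17:48346151-48346450, plus strand: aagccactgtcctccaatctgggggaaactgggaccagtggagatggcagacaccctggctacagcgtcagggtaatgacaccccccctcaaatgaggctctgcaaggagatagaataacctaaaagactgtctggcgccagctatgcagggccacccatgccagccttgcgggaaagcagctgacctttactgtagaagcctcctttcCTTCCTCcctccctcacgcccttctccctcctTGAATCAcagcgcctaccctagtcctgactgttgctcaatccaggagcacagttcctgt
Gpnmb, chr6:49036268-49036567, plus strand: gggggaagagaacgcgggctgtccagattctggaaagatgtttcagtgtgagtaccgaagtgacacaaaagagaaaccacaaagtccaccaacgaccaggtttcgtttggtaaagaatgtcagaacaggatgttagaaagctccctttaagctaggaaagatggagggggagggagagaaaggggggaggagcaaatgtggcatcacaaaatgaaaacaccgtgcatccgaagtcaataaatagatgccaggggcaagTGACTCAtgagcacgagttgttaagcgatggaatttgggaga
Both strands were searched for 5 motifs. That of AP-1, a factor family induced by stress and growth signals, was written TGANTCA. That of PU.1, a master regulator of myeloid cells, was written GAGGAAG. The E-box bound by many helix-loop-helix factors was written CACGTG. The M-box bound by MiT/TFE factors of lysosome genes was written TCATGTG. The TATA box found near some start sites was written TATAAA. Counting the start as 0, the Spp1 promoter shown, the first of 2, held TATA from position -211 and PU.1 from -113. The Trem2 promoter held PU.1 on the opposite strand from -41 and AP-1 from -9, and the Gpnmb promoter held AP-1 from 8. Of 32851 promoters of this length, 7.81% held AP-1, 13.6% PU.1, 7.15% the E-box, 3.77% the M-box and 13.6% TATA. Of the 10 symbols 8 were matched, with Fabp5 and Lpl missing. Outside these 3 promoters, PU.1 was found in that of Cd63 and TATA in the second of 3 for Apoe. The other 6 sequences, the second of Spp1 among them, held none of the motifs. These matches are letters in a window and were not tied to the expression values.

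After filtering and removal of doublets, 10149 MOCK and 9831 NAV cells were analysed, with medians of 3721 and 1986 UMIs. They were clustered without the 10 genes and named by marker lists that contain none of them. The macrophage-like class held 2722 MOCK and 1439 NAV cells. Kupffer-like cells, the resident macrophages of liver sinusoids, numbered 774 and 225, and classical monocyte-like cells 1573 and 1130. Cells of unnamed clusters numbered 962 and 1857, and the largest of these clusters, led by Tnf and Cxcl3, held 415 and 1303. Levels are given as CPM, the UMIs of a gene per 1000000 UMIs of a class in a library, a scale that carries no transcript length and is compared here only within a gene. The libraries shared 5 cell barcodes. Median depth was close within the macrophage-like class, at 5100 and 4435 UMIs.

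Spp1 was held mainly by macrophage-like cells. In macrophage-like cells its level was 690 CPM (95% interval 677 to 704) in MOCK and 2418 CPM (2381 to 2456) in NAV. Kupffer-like cells held 8.26 and 18.3 CPM, close to the 11.6 and 10.3 CPM of B-like cells, a class that should lack the transcript. Between these lay classical monocyte-like cells at 251 and 124 CPM, neutrophil-like cells at 50.7 and 191 CPM, conventional dendritic cells of the cDC1-like class at 73.4 and 131 CPM and cDC2-like cells at 22.0 and 88.5 CPM. The macrophage-like class was thus highest in both libraries, and no interval of another named class of at least 50 cells reached it.

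**Figure D1:**
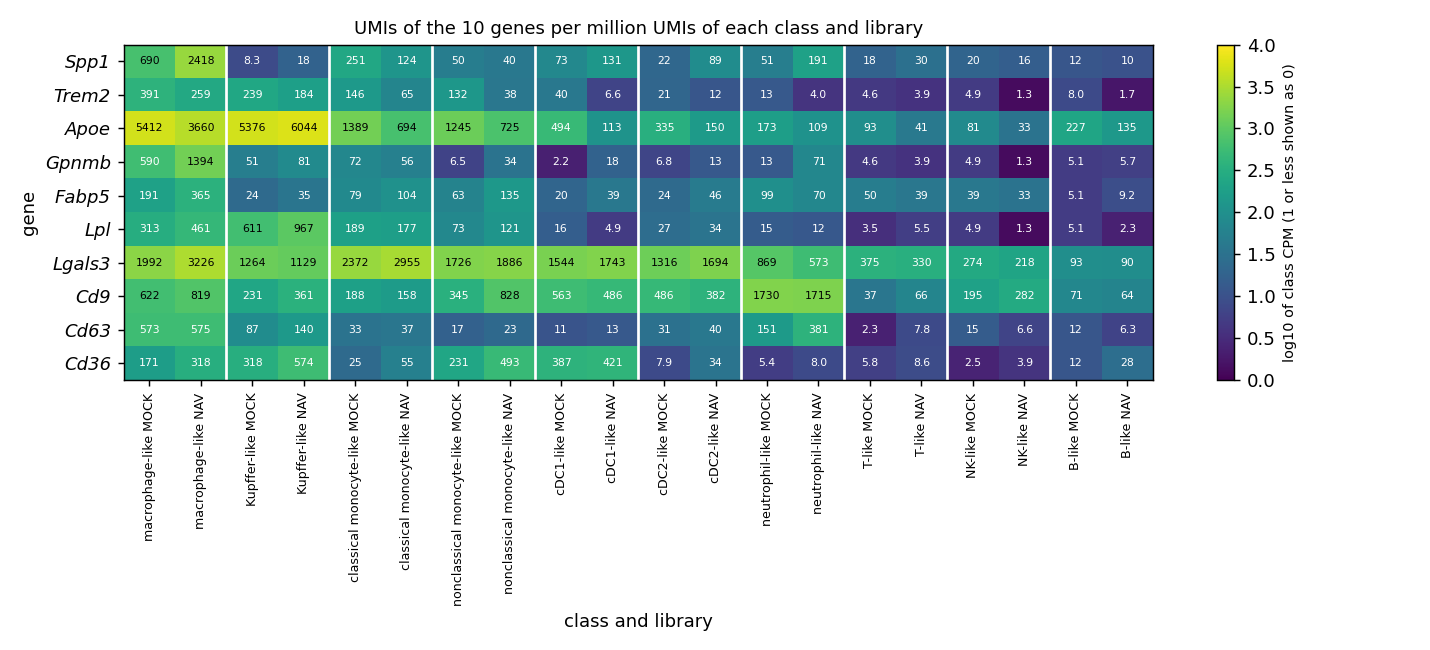
CPM of the 10 genes (rows) in 10 classes, each with its MOCK and NAV library (columns); the number in a cell is the CPM and its colour the log10 of it. Spp1 and Gpnmb were highest in macrophage-like cells, Apoe was high in both macrophage-like and Kupffer-like cells, and Cd9 was highest in neutrophil-like cells.

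Detection in single cells also put macrophage-like cells first for Spp1. With each cell thinned to 1000 UMIs, 22.2% of MOCK and 39.7% of NAV macrophage-like cells held an Spp1 UMI, against 1.34% and 1.22% of B-like cells. The unthinned shares were 37.4% and 55.6% in macrophage-like cells, and 1.37% in B-like cells of either library, whose median depths were 1270.5 and 1365.5 UMIs. Kupffer-like cells were at 0.647% and 0.444% when thinned, which is at or below B-like cells, so Spp1 there is read as background. Thinned neutrophil-like cells stood above it, at 3.78% in MOCK and 7.06% in NAV. The thinning left out 115 MOCK and 49 NAV macrophage-like cells.

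The other secreted members had different patterns. Apoe encodes apolipoprotein E, the lipid carrier that macrophages use to export cholesterol and a TREM2 ligand. Its level was 5412 CPM in MOCK and 3660 CPM in NAV macrophage-like cells, and 5376 and 6044 CPM in Kupffer-like cells. The MOCK values of the 2 classes had overlapping intervals (5375 to 5450 and 5317 to 5435 CPM), whereas in NAV the Kupffer-like level was the higher. Apoe UMIs were also found in 18.0% of thinned MOCK and 10.1% of NAV B-like cells. The shares of 10.8% and 7.21% in neutrophil-like cells lay below these, as did those in T- and NK-like cells. Apoe in T-, NK-, B- and neutrophil-like cells is therefore read as background. Shares were higher in a class of cycling cells, at 67.2% and 31.9%, and in cells of unnamed clusters, at 50.25% and 23.6%. Lgals3 encodes galectin-3, a sugar-binding protein secreted by many myeloid cells and a reported TREM2 ligand. It was present in all myeloid classes of the heat map of levels by class, from 573 CPM in NAV neutrophil-like to 3226 CPM in NAV macrophage-like cells.

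Among the receptors, Trem2 followed Apoe more than Spp1. Trem2 was at 391 CPM in MOCK and 259 CPM in NAV macrophage-like cells, at 239 and 184 CPM in Kupffer-like cells, at 146 and 65.4 CPM in classical monocyte-like cells, and under 10 CPM in T-, NK- and B-like cells of both libraries. Cd36 encodes a scavenger receptor that takes up fatty acids and oxidised lipoproteins. Among the NAV classes it was highest in Kupffer-like cells at 574 CPM (536 to 614), followed by nonclassical monocyte-like cells at 493 CPM (454 to 534) and cDC1-like cells at 421 CPM (371 to 476). The Kupffer-like interval lay above the next, whereas those of the other two overlapped. The order differed in MOCK, where a peritoneal-type macrophage-like class of 72 cells held 507 CPM and cDC1-like cells 387 CPM. Kupffer-like cells followed at 318 CPM and nonclassical monocyte-like cells at 231 CPM. Classical monocyte-like cells held 24.6 CPM of Cd36 in MOCK and 55.3 CPM in NAV.

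The lipid-handling and membrane genes divided the macrophage classes. Lpl encodes lipoprotein lipase, which releases fatty acids from triglyceride-rich lipoproteins, and was highest in Kupffer-like cells (611 CPM in MOCK and 967 CPM in NAV), above macrophage-like cells (313 and 461 CPM). Fabp5, a fatty acid carrier of the cytosol, was at 191 and 365 CPM in macrophage-like cells. The small class of mature dendritic cells (43 MOCK and 87 NAV cells) held more Fabp5, 1148 and 1590 CPM, and also more Cd63 than macrophage-like cells, 668 and 838 CPM. Gpnmb, a transmembrane glycoprotein of lysosomes and melanosomes, was at 590 and 1394 CPM in macrophage-like cells and at most 80.6 CPM in any other class on the heat map of levels by class. Cd63, a tetraspanin of late endosomes, was at 573 and 575 CPM in macrophage-like cells. Cd9, a tetraspanin of the cell surface, was highest in neutrophil-like cells at 1730 and 1715 CPM, and so marked no macrophage class here.

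The first comparison was between NAV and MOCK within the macrophage-like class, where 7 of the 10 genes were higher in NAV, 2 were lower and 1 was level. Spp1 had a log2 ratio of 1.81 (1.77 to 1.84), or 3.50-fold, and Gpnmb one of 1.24 (1.20 to 1.28). These were the 2 members past a 2-fold difference upwards with an interval clear of 0, a mark that 1.5% of the 11300 genes measured in the class passed. No member was past it downwards, against 5.5% of all genes, which among 10 genes is near the background. The upward count was 1 at a finer clustering (Leiden resolution 2.0) and 0 relative to the other classes. Fabp5 at 0.93 (0.85 to 1.01) and Cd36 at 0.89 (0.81 to 0.98) lay just inside the mark. Lgals3 followed at 0.70, Lpl at 0.56 and Cd9 at 0.40, and Cd63 was at 0.00 (-0.05 to 0.06). The 2 lower genes were Apoe at -0.56 (-0.59 to -0.54) and Trem2 at -0.59 (-0.67 to -0.51). The median of the 10 genes was 0.63 and that of all genes 0.01. Intervals wholly above 0 are common at this depth, in 19.6% of genes, and wholly below 0 in 20.6%.

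**Figure D2:**
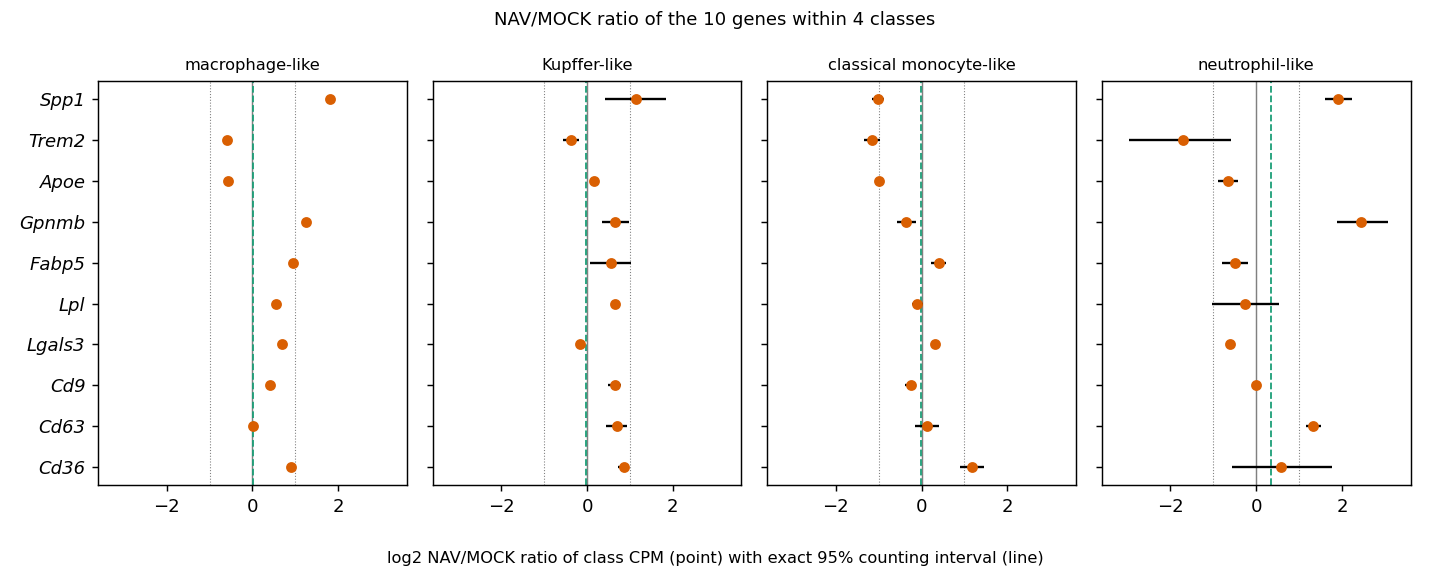
Log2 NAV/MOCK ratio of class CPM for the 10 genes in 4 classes, with exact 95% counting intervals as lines; the dotted lines mark 2-fold, the solid line 0 and the dashed line the median of all genes measured in the class. Spp1 stood at 1.81 in macrophage-like and 1.92 in neutrophil-like cells but at -1.02 in classical monocyte-like cells.

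In the library total of these cells the markers of other cells were scarce. Summed over 9 biliary or tumour epithelial markers, macrophage-like cells held 10.3 CPM in MOCK and 6.49 CPM in NAV. The hepatocyte list without Trf, which macrophages also express, summed to 8.60 and 4.52 CPM, and the stromal list to 17.3 and 11.6 CPM. The platelet list without Pf4 was at 22.3 and 51.9 CPM, higher in NAV as Spp1 was, and with Pf4, most of the list's UMIs, at 229 and 307 CPM. Its part in the Spp1 ratio was not tested.

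The 2 libraries drew their macrophage-like cells from different clusters. The largest in MOCK was led by Tmem119, Col14a1 and Ms4a7 (950 MOCK and 338 NAV cells), and the largest in NAV by Arg1, Emp1 and Pdpn (467 and 642 cells). The Arg1-led cluster was named from 4 of 12 macrophage markers raised, with 1 marker among its top 10 genes. The classical monocyte list came next, with 22.2% of its markers raised. The Arg1-led cluster held 4.60% of MOCK and 6.53% of NAV cells but 42.4% and 71.1% of all Spp1 UMIs of its library. It likewise held 47.7% and 73.3% of the Gpnmb UMIs. Spp1 in it was at 2225 CPM in MOCK and 4530 CPM in NAV, a log2 ratio of 1.03 (0.98 to 1.07), so the gene was higher in NAV within the cluster as well. With this cluster left out, the Spp1 ratio of the macrophage-like class was 0.85, and no member was past 2-fold.

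Within the Arg1-led cluster the members parted further. Gpnmb went from 1848 CPM in MOCK to 2504 CPM in NAV (log2 ratio 0.44), Cd36 from 190 to 431 CPM (1.19) and Lgals3 from 3755 to 4638 CPM (0.30). Fabp5 was at 529 and 624 CPM (0.24), and Lpl, Cd9 and Cd63 differed by less than 0.1 on the log2 scale. Apoe was lower in NAV, at 3530 and 1973 CPM (-0.84), and so was Trem2, at 404 and 241 CPM (-0.75). The macrophage-like cluster with the most Spp1 was thus not the one with the most Apoe or Trem2.

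The other macrophage-like clusters showed how far the genes were separable. In the Tmem119-led cluster Spp1 was nearly level, at 375 and 410 CPM (0.13), while Gpnmb was at 109 CPM in MOCK and 353 CPM in NAV (1.70, 1.53 to 1.87) and Lpl at 198 and 390 CPM (0.98). A cluster led by the heat shock genes Hspa1a and Hspa1b held Spp1 at 255 and 572 CPM (1.16). In a cluster led by Vcam1, Mmp12 and Mmp13 (573 and 126 cells) Spp1 was at 49.5 and 67.0 CPM and Gpnmb at 241 and 242 CPM, whereas Lpl was at 440 and 1028 CPM (1.23, 1.08 to 1.37). A cluster led by Fcrls, Syngr1 and Igf1 had the highest MOCK levels of Apoe (7648 CPM) and Trem2 (615 CPM) of the macrophage-like clusters. Its MOCK Spp1, at 935 CPM, was below only the 2225 CPM of the Arg1-led cluster. Spp1 was thus not low where Apoe and Trem2 were highest. Its 33 NAV cells were too few for a ratio under the minimum of 50 cells. The class difference was also split by cluster, in mean UMIs per 10000 UMIs of a cell (NAV minus MOCK). For Spp1 it was 17.2, with 6.72 from cluster shares and 10.5 from levels within clusters. The Arg1-led cluster gave 8.83 of Spp1 by its share and 7.22 by its level. For Gpnmb the 2 parts were 4.01 and 3.62, for Apoe -8.86 and -8.23, and for Trem2 -0.10 and -1.09. The class ratios of Gpnmb and Apoe thus mix cluster makeup with levels. Levels within the Fcrls-led cluster gave 1.94 for Spp1 and 0.31 for Gpnmb, and -0.35 for Apoe and -0.05 for Trem2. These parts rest on the same 33 NAV cells.

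**Figure D3:**
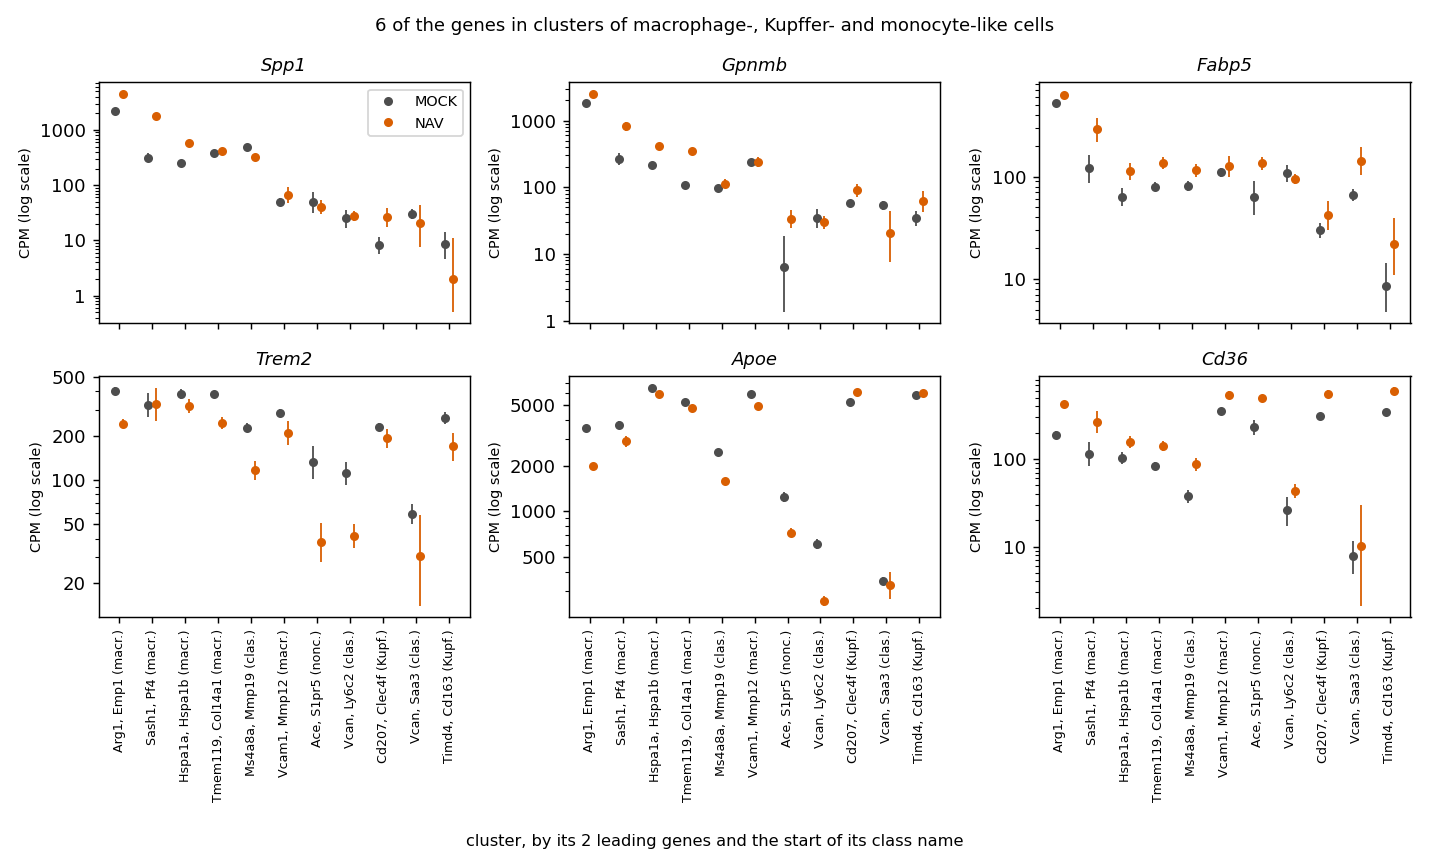
CPM on a log scale of 6 of the genes in clusters of macrophage-, Kupffer- and monocyte-like cells with at least 50 cells per library, ordered by NAV Spp1; points are MOCK (grey) and NAV (orange) and lines exact 95% Poisson intervals. Spp1 and Gpnmb were highest in the Arg1-led cluster, while Apoe was lower there than in the Tmem119-, Vcam1- and Kupffer-like clusters.

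Outside the named classes, 1 small cluster had a higher Spp1 CPM than any macrophage-like cluster. It was led by Dennd1a, Lrmda and Ext1, had a median of 964 UMIs per cell and met no naming rule. Its 75 MOCK cells held Spp1 at 4183 CPM and its 62 NAV cells at 5198 CPM, with Gpnmb at 676 and 230 CPM. The Tnf- and Cxcl3-led unnamed cluster held Spp1 at 72.4 and 315 CPM.

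Most of the 10 genes had somewhat higher levels in NAV than in MOCK Kupffer-like cells. Apoe was slightly higher in NAV (0.17, 0.14 to 0.20), the 1 large class in which it was. Cd36 stood at 0.85 (0.73 to 0.97), Cd63 at 0.69, Lpl at 0.66, Gpnmb at 0.66, Cd9 at 0.64 and Fabp5 at 0.56, all with intervals above 0. The Gpnmb and Fabp5 ratios rested on few cells, since 1 NAV cell held 35 of the 119 Gpnmb UMIs and 1 held 10 of the 52 Fabp5 UMIs. The unthinned shares of cells with a UMI were 13.4% in MOCK and 11.6% in NAV for Gpnmb, and 12.4% and 11.1% for Fabp5. Of the 10 genes 8 had an interval above 0, against 9.42% of genes, and 2 below, against 13.3%. Lgals3 at -0.16 and Trem2 at -0.37 (-0.57 to -0.19) were lower. In both Kupffer-like clusters Apoe was near its class level, at 5203 and 6070 CPM in the one led by Cd207 and Clec4f and at 5831 and 5995 CPM in the one led by Timd4 and Cd163. The median over members was 0.65 and that of all genes -0.03. The wider list of lipid uptake, storage and lipolysis genes was mixed here: of 20 measured, 5 had an interval above 0 and 6 below, with a median of 0.05. Spp1 was the 1 member past 2-fold upwards (1.15), against 1.21% of genes, and 0 were past it downwards, against 4.87%. It rested on 49 MOCK and 27 NAV UMIs, at the level of background. Of the 27 NAV UMIs 11 were in 1 cell, and with doublets kept the ratio was -1.004.

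Classical monocyte-like cells went the other way for Spp1. Its ratio there was -1.02 (-1.16 to -0.89), with Trem2 at -1.16 (-1.34 to -0.98) and Apoe at 1389 and 694 CPM (interval of the log2 ratio -1.06 to -0.94). These 3 were past 2-fold downwards, as were 5.56% of all genes, and Cd36 at 1.17 (0.90 to 1.45) was past it upwards, as were 0.712%. In all 3 members had an interval above 0, against 14.1% of genes, and 5 one below, against 18.1%. Of the 1953 MOCK and 587 NAV Spp1 UMIs, 1836 and 500 were in a cluster led by Ms4a8a, Mmp19 and Chil3 (800 and 388 cells), where Spp1 was at 497 and 326 CPM (-0.61, -0.75 to -0.46). The 2 clusters led by Vcan held between 20.4 and 30.0 CPM of Spp1. They differed in their cells, with 529 MOCK and 58 NAV cells in the one also led by Saa3 and 244 and 684 in the one also led by Ly6c2. In these Spp1 was at -0.56 (-2.04 to 0.62) and 0.16 (-0.48 to 0.83), so no cluster was past 2-fold for it. Apoe was at -0.63 in the Ms4a8a-led cluster, -0.09 in the Saa3 and -1.25 in the Ly6c2 cluster, and Trem2 at -0.95, -0.94 and -1.41. Nonclassical monocyte-like cells, the patrolling monocytes, had 117 cells in MOCK, under the 200 set for counts of genes. Their Spp1 was at 49.6 and 40.5 CPM, while Cd9 was at 345 and 828 CPM and Cd36 at 231 and 493 CPM.

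The libraries also drew their neutrophil-like cells from different clusters, one led by Retnlg (1138 MOCK and 575 NAV cells) and one by Siglecf (439 and 1268 cells). In neutrophil-like cells the whole ratio distribution was displaced, with a median of 0.36 over all genes, and 13.4% of genes were past 2-fold upwards and 3.46% downwards. Spp1 at 1.92 (1.61 to 2.23), Gpnmb at 2.45 (1.88 to 3.08) and Cd63 at 1.34 (1.15 to 1.52) were past it upwards and Trem2 at -1.70 downwards, the last on 29 and 9 UMIs. In all 3 members had an interval above 0, against 38.9% of genes, and 4 one below, against 12.3%. Less the median of all genes these became 1.56, 2.09, 0.98 and -2.06. Within the Retnlg-led and the Siglecf-led cluster Spp1 was at 1.89 and 1.70, Gpnmb at 3.13 and 1.17, and Cd63 at 0.47 and 0.93, so Cd63 was past 2-fold in neither. The 160 NAV Gpnmb UMIs lay in 26 cells, and the share of cells with a Gpnmb UMI was 1.33% in MOCK and 1.41% in NAV (0.849% and 1.21% when thinned to 1000 UMIs). In cDC2-like cells Spp1 was at 2.01 (1.51 to 2.54) and Cd36 at 2.12 (1.29 to 3.05), past 2-fold upwards with 1.65% of genes. Apoe at -1.15 was past it downwards, with 4.29% of genes. The Cd36 ratio in cDC2-like cells rests on 14 MOCK and 80 NAV UMIs, and 0% and 1.59% of thinned cells held one. There 4 members had an interval above 0, against 11.4% of genes, and 3 one below, against 12.3%. Of the 5 members measured in T-like cells Apoe (-1.18) was past 2-fold downwards, with 4.19% of genes, and 0 were past it upwards, with 1.74%. Of the 7 in B-like cells Cd36 (1.27) was past it upwards, with 0.654%, and 0 were past it downwards, with 4.32%. In each of these classes 1 member had an interval above 0 (7.44% of genes in T-like and 5.63% in B-like cells) and 1 below (9.79% and 13.1%). The Apoe value in T-like and the Cd36 value in B-like cells rest on at most 81 UMIs per library.

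The members were also read across the 7 classes of at least 200 cells per library. In all, or all but 1, of the classes in which they were measured, 3 genes had intervals on the same side of 0. Trem2 had an interval below 0 in 5 of the 5 classes in which it was measured, and Apoe in 6 of 7. These tallies count classes at background: T-, B- and neutrophil-like cells for Apoe, and neutrophil-like cells for Trem2. In cDC2-like cells the thinned share with an Apoe UMI, 12.3% and 5.36%, was also below that of B-like cells. Cd36 had an interval above 0 in 5 of 6 classes. Among the 5 were B-like cells, where 0.853% of MOCK and 1.12% of NAV thinned cells held a Cd36 UMI. Also among them were cDC2-like cells, with 0% and 1.59%, near those B-like shares. Spp1 and Fabp5 each had 4 intervals above 0, 1 below and 2 that held 0. The 4 for Spp1 include Kupffer-like cells, where it is read as background. Gpnmb, measured in 5 classes, had 3 above, 1 below and 1 that held 0. These classes share their 2 libraries, so a difference between the libraries as such would appear in each. Taken relative to the median of the same gene in the other classes, which includes those background classes, macrophage-like Spp1 was at 0.89 and Gpnmb at 0.45, and 3 genes changed sign: Trem2 to 0.41, Apoe to 0.31 and Cd36 to -0.28. The last 500 transcript bases of Trem2 were 55.2% G or C, in decile 10, the highest of genes by GC, whose median ratio in macrophage-like cells was -0.36. Those of Apoe were 52.4%, in decile 9 with a median of -0.10, and those of Spp1 32.6%, in decile 1 with a median of 0.04. The part of base composition in the Trem2 and Apoe ratios was not tested.

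Over all analysed cells of a library the values mix class sizes with levels. Spp1 was at a log2 ratio of 1.03, past 2-fold upwards with 5.14% of genes, and Trem2 (-1.23) and Apoe (-1.08) were past it downwards with 5.66%. In all 6 members had an interval above 0, against 35.0% of genes, and 4 one below, against 24.4%. In mean UMIs per 10000 UMIs of a cell, Spp1 was at 2.38 in MOCK and 4.68 in NAV. Of this difference -1.61 came from class shares, since NAV held fewer macrophage-like cells, and 3.91 from levels within classes. Apoe was at 24.5 and 9.72, of which -8.23 came from shares and -6.59 from levels. Lgals3 was nearly level in total, at 13.5 and 13.1, with -2.95 from shares and 2.53 from levels. For 7 of the 10 genes the 2 parts had opposite signs.

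**Figure D4:**
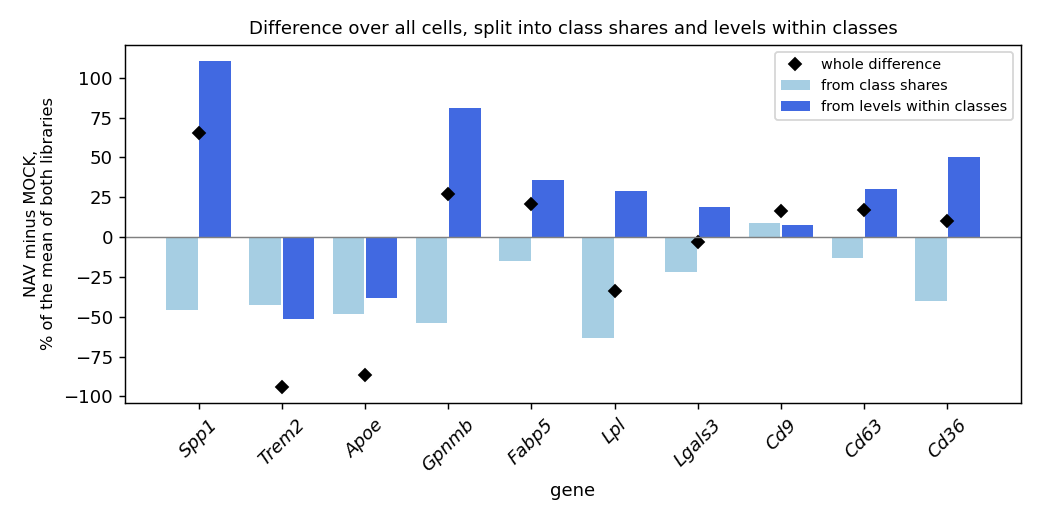
NAV minus MOCK in mean UMIs per 10000 over all analysed cells, as a percent of the mean of both libraries, for each gene (diamonds), split into the part from class shares (light bars) and the part from levels within classes (dark bars). For Spp1 the parts were of opposite sign, and for Apoe and Trem2 both were negative.

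Spp1 was unevenly held among macrophage-like cells. The 10% of these cells with most Spp1 held 78.0% of its UMIs in MOCK and 67.7% in NAV, and 62.6% and 44.4% of cells held none. Gpnmb was more concentrated, at 88.4% and 88.7%, and Fabp5 similar, at 80.9% and 78.4%. Lpl (68.2% and 68.0%) and Cd36 (74.7% and 66.2%) belonged with these. Apoe was spread over nearly all cells, with 25.6% and 33.0% in the top 10% and a median of 25 and 11 UMIs per cell. Trem2 had 32.9% and 38.9% in the top 10%, with medians of 2 and 1 UMIs. The members thus fell into a concentrated set and a broadly held set within the same class.

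Detection in the same cells as Spp1 did not follow that division for every gene. Cells were thinned to 3000 UMIs, which left 2252 MOCK and 1072 NAV macrophage-like cells. Gpnmb was detected in 37.7% of MOCK cells with Spp1 and 16.8% of those without, and in 36.4% and 19.2% in NAV. Fabp5 was detected in 30.7% and 14.4% in MOCK and in 32.5% and 20.7% in NAV, and Cd9 in 81.8% and 63.6% and in 79.6% and 67.2%. Trem2 differed less, at 68.5% and 58.8% in MOCK and 50.8% and 42.7% in NAV. Apoe was found in over 94% of cells of either kind, so detection could show little difference for it. Its mean UMIs per thinned cell were 15.5 with Spp1 and 17.4 without in MOCK, and 9.96 and 12.2 in NAV. Cd36 was detected in 17.9% of MOCK cells with Spp1 against 21.7% without and in 32.3% and 31.4% in NAV. Lpl was at 33.6% and 28.8% in MOCK and 39.9% and 38.9% in NAV. Cd9, a broadly held gene, thus went with Spp1 more than the concentrated Cd36 and Lpl did. Cells of 1 library share their source and are no replicates.

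**Figure D5:**
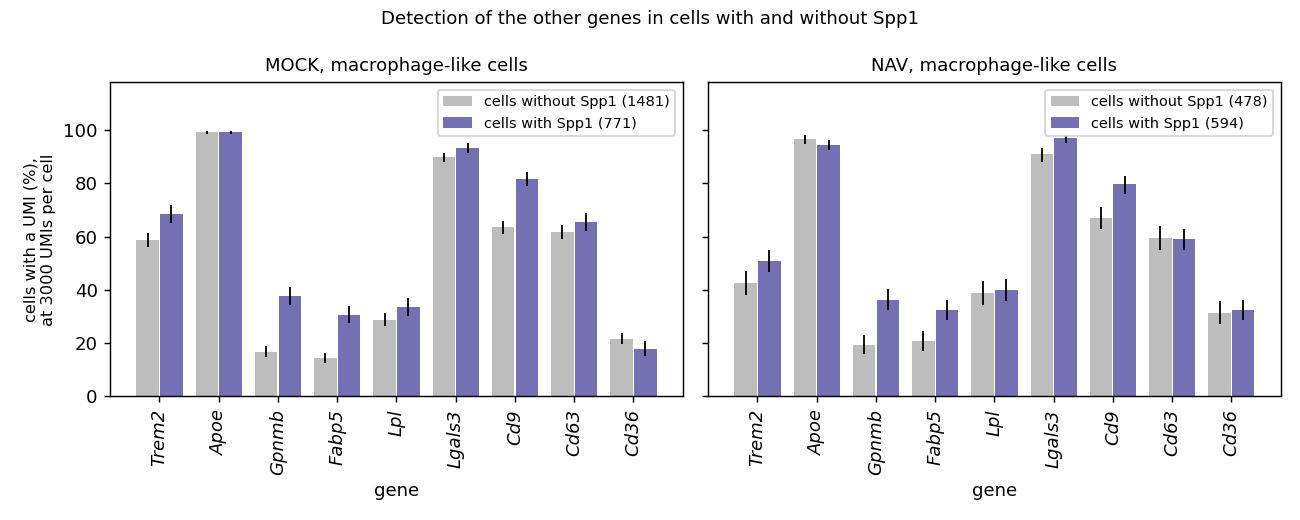
Percent of macrophage-like cells, thinned to 3000 UMIs, with a UMI of each other gene, for cells without (grey) and with (purple) an Spp1 UMI, with exact 95% binomial intervals as lines. Gpnmb and Fabp5 were detected more often in cells with Spp1 in both libraries, and Apoe was detected in nearly all cells.

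Over clusters of mononuclear phagocytes Spp1 went with Gpnmb and Fabp5, and over classes of all kinds with Gpnmb. Across 27 cluster sums of mononuclear phagocytes in the 2 libraries, the Pearson correlation of log2(CPM + 10) was 0.84 for Spp1 with Gpnmb and 0.77 with Fabp5. It was 0.87 for Apoe with Trem2, 0.26 for Spp1 with Apoe and -0.64 for Apoe with Lgals3. Over 25 class sums Spp1 had a correlation of 0.82 with Gpnmb, 0.65 with Lgals3 and 0.57 with Trem2 but 0.43 with Fabp5. Spp1 with Apoe was at 0.49 over these class sums. Apoe with Lgals3 was at 0.63 there, so the sign for this pair depended on the sums used. Over the same sums, the genes outside the 10 most like Spp1 were Pdpn (0.89), which encodes the membrane glycoprotein podoplanin, Lhfpl2 (0.83), Pgam1 (0.80), Fcrls (0.79) and Pgk1 (0.78). Pgam1 and Pgk1 encode glycolytic enzymes. Among those most like Trem2 were Itgb5 (0.97), an integrin chain, and Stab1 (0.96), a scavenger receptor. Those most like Gpnmb were Lhfpl2 (0.93), the chemokine gene Ccl12 (0.88) and Syngr1 (0.87). The sums share 2 libraries and these values are descriptions.

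The known partners of these genes were read from lists in the macrophage-like class, where 1.5% of all genes were past 2-fold upwards and 5.5% downwards. At these list sizes a single gene past it downwards is near that share. Of 8 osteopontin receptors measured, 0 were past 2-fold upwards and 1 downwards, the integrin gene Itgb5 at -1.11 (444 and 206 CPM), and the median was -0.30. Of 13 genes of TREM2 signalling, 0 were past it upwards and 1 downwards, the exchange factor gene Vav1 at -2.17, with a median of -0.08. Of 14 apolipoprotein E receptors and efflux genes 5 were past it downwards and 0 upwards, with a median of -0.36. They included Rxra (-1.59) and Nr1h2 (-1.36), nuclear receptors of sterol sensing, and the apolipoprotein genes Apoc1 (-1.33) and Apoc4 (-2.33, on 22 and 2 UMIs). Of 21 genes of lipid uptake, storage and lipolysis 1 was past it upwards, Fabp3 (1.09, on 33 and 32 UMIs), and 2 downwards, the lipase maturation gene Lmf1 (-2.91) and the triglyceride synthesis gene Dgat1 (53.4 and 26.7 CPM), with a median of 0.22.

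Of 19 lysosome genes 1 was past 2-fold upwards, the proton pump subunit gene Atp6v0d2 (1.07, on 73 and 70 UMIs), and 2 downwards, the protease gene Ctsd (-2.54, 1198 and 207 CPM) and the hexosaminidase gene Hexa (-1.77), with a median of -0.02. Of 20 other genes reported in lipid-associated macrophages, Emp1 (1.03) and Atp6v0d2 were past it upwards and the phospholipase gene Pld3 (-2.23) downwards, with a median of 0.37; Clec7a is missing from the table. Emp1 also led the Arg1-led cluster. Of 11 other tetraspanins Cd37 (-1.62) and Cd82 (-1.25) were past it downwards, with a median of -0.27. None of 4 other galectins (median 0.08) or 5 other TREM family genes (median -0.07) was past it in either direction. Of 3 other fatty acid binding proteins Fabp3 was past it upwards and Fabp7 (-1.72) downwards, with a median of 0.54. Vav1, Ctsd, Hexa, Pld3, Nr1h2 and Cd37 had intervals below 0 in all of the 6 other large classes. Their last 500 bases lay in decile 10, the highest by GC, whose median ratio in macrophage-like cells was -0.36. Apoc1, Apoc4, Lmf1, Dgat1 and Cd82 also lay in decile 10, and Rxra in decile 9. Of the other genes named as lower, Itgb5 lay in decile 8 and Fabp7 in decile 3. The part of base composition in these ratios and list counts was not tested.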

How the data were processed

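UMI count tables of 2 libraries, MOCK and NAV, were used as the authors deposited them: whole-number counts per gene and cell. The submitters' processing notes name fastp, STARsolo 2.7.10a, Cell Ranger and mm10; their roles and settings are not given in the sources used here. Totals were 45976676 UMIs in 10863 MOCK barcodes and 31454031 in 10465 NAV barcodes, each with at least 500 UMIs. Cells with under 200 genes or 20% or more mitochondrial UMIs were removed. Scrublet's automatic threshold marked 0.00929% of MOCK and 0% of NAV cells, so cells with a score above 0.25 and clusters with a median score above 0.1 were removed instead (621 and 610). These thresholds were set after the counts were seen. Cells of both libraries were clustered together in scanpy 1.11.5 into 36 clusters, sub-clustering lymphoid and phagocyte cells. The settings were 2000 variable genes without the 10 members, 30 components, 15 neighbours, Leiden resolution 1.0 and seed 1. Cells were thinned with seed 11. Clusters were named from 23 marker lists, requiring at least 3 raised markers and no other list with more among the top 10. In addition, 1 marker had to be among the top 10 genes or 60% of the list raised. Intervals are exact Poisson for CPM, exact conditional for ratios and exact Clopper-Pearson for shares (scipy 1.17.1). A gene counted as measured with at least 20 UMIs over both libraries in a class, and as past the mark at a log2 ratio of at least 1.0 or at most -1.0 with an interval clear of 0. A count of 0 was set to a floor of 3 counts. The difference over all cells was split as the mean of the 2 orders of exchanging shares and levels. Genes named outside the 10 are the 5 most like Spp1 and the 3 most like Trem2 and Gpnmb (at least 50 CPM in a sum of at least 50 cells), up to 4 past the mark per list in macrophage-like cells, and the leading genes of clusters. Scripts were tested on simulated data. Promoter sequences are from RefSeq on GRCm38.p6, and GC from GENCODE vM21 transcripts on GRCm38. The members and lists were chosen with earlier results of these data known. No comparison could be tested, with 1 library per group. A gene that the likeness rule selected is not reported here.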

Additional observations from a re-analysis of the deposited data

Results flagged for a closer look

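The Spp1 ratio did not point the same way in every class. Its log2 NAV/MOCK ratio was 1.81 in macrophage-like, 1.92 in neutrophil-like, 2.01 in cDC2-like and 1.15 in Kupffer-like cells, and -1.02 in classical monocyte-like cells, each with a counting interval clear of 0. The difference between classes was not tested, since each group is 1 library. The Kupffer-like value is at the level of background, and 11 of its 27 NAV UMIs were in 1 cell.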

How the results depend on the processing

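No paired analysis was possible because each group is 1 library and no test was run. The log2 Spp1 ratio in macrophage-like cells, 1.81 as reported, was 2.30 with the stricter cell filter, 2.08 with doublets kept, 2.40 at Leiden resolution 2.0, 1.91 with equal weight per cell, 1.13 without cells holding a platelet, hepatocyte or biliary epithelial UMI, 0.89 relative to the other classes and 0.85 without the Arg1-led cluster, the last chosen after seeing the data. The filter on other-cell UMIs left only 413 of 2722 MOCK and 415 of 1439 NAV macrophage-like cells. Its lists include Trf, which macrophages also express, and Pf4, a leading gene of a macrophage-like cluster. The value of 1.13 is thus that of a small part of the class. The 2 members past 2-fold upwards became 1 at resolution 2.0, and 0 without the Arg1-led cluster or relative to the other classes. Over all cells the Spp1 ratio was 0.97 with median-of-ratios scaling and 0.995 with doublets kept. Macrophage-like cells with Spp1 were 16.0% and 30.9% at 500 UMIs and 37.4% and 55.6% unthinned. Of the main values under an alternative, 21 stayed and 16 moved. Of 349 other values under an alternative (ratios of single members and counts of lists), 197 stayed within their interval or 1.5 times their count, 141 moved and 11 reversed. Relative to the other classes these were Trem2 0.41, Apoe 0.31 and Cd36 -0.28 in macrophage-like cells, Spp1 -0.10, Trem2 0.63, Gpnmb -0.42, Fabp5 -0.065 and Cd36 -0.32 in Kupffer-like cells, and Fabp5 -0.31 in classical monocyte-like cells. The others were Kupffer-like Spp1 with doublets kept (-1.004) and classical monocyte-like Gpnmb at resolution 2.0 (0.22). The cause was not tested. Kupffer-like cells gave no value without cells holding other-cell UMIs (5 MOCK and 3 NAV cells left) or with libraries clustered separately. Depth limits ratios on few UMIs, such as Kupffer-like Spp1 (49 and 27) and neutrophil-like Trem2 (29 and 9).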
